A study of Mus musculus with 8 samples.

Results

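Complement is a set of proteins that mark and damage foreign or altered surfaces. It is started by the classical pathway (the protease complex of C1r and C1s, then C4 and C2), by the lectin pathway or by the alternative pathway (factor B), and all of these meet at C3, whose cleavage coats a surface and leads on to the membrane attack complex. Host cells carry membrane regulators such as CD55, which takes apart the enzymes that cleave C3, and CD59, which blocks the membrane attack complex. The liver makes most of the complement of the blood, but epithelial cells, KCs (the epithelial cells of the epidermis) among them, are known to make some components themselves and to carry the regulators.

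The RNA of 8 complement genes, C3, C2, C4b, Cfb, C1ra, C1s1, Cd55 and Cd59a, was examined among the 41457 genes that were listed for each sample. These are the rows whose name equals one of the symbols, and each symbol was found once in every sample. KCs from the tails of adult wildtype mice, C57BL/6 in the labels and C57BL/6J in the text of the study, without treatment, were cultured in a serum-free KC medium with low Ca++ for 1 week (4 samples) or 3 weeks (4 samples), and their poly(A) RNA was sequenced with single reads of 59 bases. All samples are of 1 genotype in culture, and the labels do not say how many mice went into a sample. The labels number the samples as replicates 1 to 4 at each time, and the names of the deposited tables add preparation numbers, of which 46, 49 and 90 occur at both times. The study describes independent batches of KCs and the same batches at both times, whereas preparations 47 and 57 occur at 1 time each. Whether batches came from separate mice is not given, and p-values measure the spread between these batches.

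Between 13896807 and 20026084 reads of a sample lay on exons. Levels are given as RPKM, the reads on the exons of a gene scaled to its exon length and to how many reads of the sample were mapped, so that genes of different length can be compared. Fold changes are 3 weeks over 1 week, from the exon reads by edgeR's quasi-likelihood test with TMM normalization, with Benjamini-Hochberg adjustment over all 12590 genes tested and a threshold of 0.05. The KC markers Krt14 (4 samples at 1 week with a mean of 6941 RPKM, 4 at 3 weeks with 5283 RPKM) and Krt5 (6170 and 2207 RPKM) were high in both groups. The summed RPKM of 8 fibroblast markers was between 2.84 and 6.98. It was between 8.25 and 20.8 for 8 macrophage and leukocyte markers and between 1.65 and 21.4 for 6 melanocyte markers. Cd207 of Langerhans cells and Trdc of skin T cells had 0 reads in all samples. Other markers of these cells did have reads. H2-Ab1 had means of 0.821 RPKM at 1 week and 4.84 RPKM at 3 weeks. The other Langerhans cell markers tested, H2-Eb1 (0.57 and 0.94 RPKM), Cd74 (0.93 and 0.88 RPKM) and H2-Aa (0.39 and 0.28 RPKM), did not pass the threshold. Of the T cell markers only Thy1 (1.22 and 0.734 RPKM), which is also on the fibroblast list, had more than 3 reads in any sample. On the principal component that followed the one separating the times (21.6% of the variance), 3 weeks replicates 3 and 4 lay at opposite ends, and several complement genes of 3 weeks replicate 4 were far from those of the other 3-week samples. Results that rest on this sample are given with and without it.

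The 3 most expressed of these genes were the regulators Cd55 and Cd59a and the central component C3. The letters before their transcription starts (RefSeq, GRCm38.p6) are shown. Cd55 and Cd59a, which were both called higher at 3 weeks, can thus be set beside C3, which did not pass the test. Each line holds the 250 bases that end at the base before the annotated start, written 5′ to 3′ on the strand of the gene. Capitals mark matches to motifs of factors known for promoters of immune and housekeeping genes.

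C3: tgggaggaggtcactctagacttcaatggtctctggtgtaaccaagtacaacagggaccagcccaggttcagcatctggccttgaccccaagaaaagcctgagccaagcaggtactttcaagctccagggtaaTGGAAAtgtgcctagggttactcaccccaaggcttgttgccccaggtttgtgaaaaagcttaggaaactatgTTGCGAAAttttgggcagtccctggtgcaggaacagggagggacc
Cd55: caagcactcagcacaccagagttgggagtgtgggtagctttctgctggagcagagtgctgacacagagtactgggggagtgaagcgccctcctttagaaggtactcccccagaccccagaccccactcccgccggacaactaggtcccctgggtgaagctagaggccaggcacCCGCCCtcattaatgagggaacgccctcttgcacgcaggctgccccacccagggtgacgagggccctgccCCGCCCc
Cd59a: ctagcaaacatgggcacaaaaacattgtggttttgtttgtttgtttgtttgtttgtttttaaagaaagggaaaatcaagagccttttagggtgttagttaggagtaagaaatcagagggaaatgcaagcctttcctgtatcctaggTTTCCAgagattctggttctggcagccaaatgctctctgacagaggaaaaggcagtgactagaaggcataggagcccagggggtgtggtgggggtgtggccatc

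The C3 window lies at chr17:57228137-57228386 on the minus strand, the Cd55 window at chr1:130462745-130462994 on the minus strand and the Cd59a window at chr2:104095551-104095800 on the plus strand. Motifs were searched on both strands, and none of the matches shown overlap. The C/EBP motif TTGCNNAA was found once in the C3 window, beginning 45 bases before the start, and in 9.56% of the windows of this length before all 32851 listed starts. The Sp1 motif GGGCGG was found 2 times in the Cd55 window, beginning 77 and 7 bases before the start, and in 32.7% of all windows. The NFAT core TGGAAA was found once each in the C3 and Cd59a windows and in 18.6% of all windows. The AP-1 motif TGANTCA (6.75% of all windows), the STAT motif TTCNNNGAA (7.02%) and the NF-kB motif (7.25%) had no match in these 3 windows. The share of G and C was 64% for Cd55, 52% for C3 and 44.8% for Cd59a, with a median of 52.4% over all windows. The windows of Cd55 and Cd59a had no motif of this search in common, and a match is only a match of letters.

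Of the 8 genes, the membrane regulators Cd55 and Cd59a rose between 1 and 3 weeks. None of the 5 components that could be tested passed the threshold. The rise did not extend to all membrane regulators, since of the others tested Cd59b was higher and Cr1l lower. Cd55 was 2.98-fold and Cd59a 2.57-fold higher at 3 weeks. Thus 2 of the 7 genes tested were called, both higher and none lower. Of all genes tested, 32.8% were called, 15.7% as higher and 17.0% as lower, so that the share among the complement genes was not far from that of all genes. Of the 5 components, C3, C4b, Cfb, C1ra and C1s1, 0 had an unadjusted p under 0.05 in edgeR, and DESeq2 and limma called 0 of them as well. The median log2 fold change was 0.12 over the 7 genes and 0.03 over all genes tested. C2 had too few reads to be tested in this fit.

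**Figure D1:**
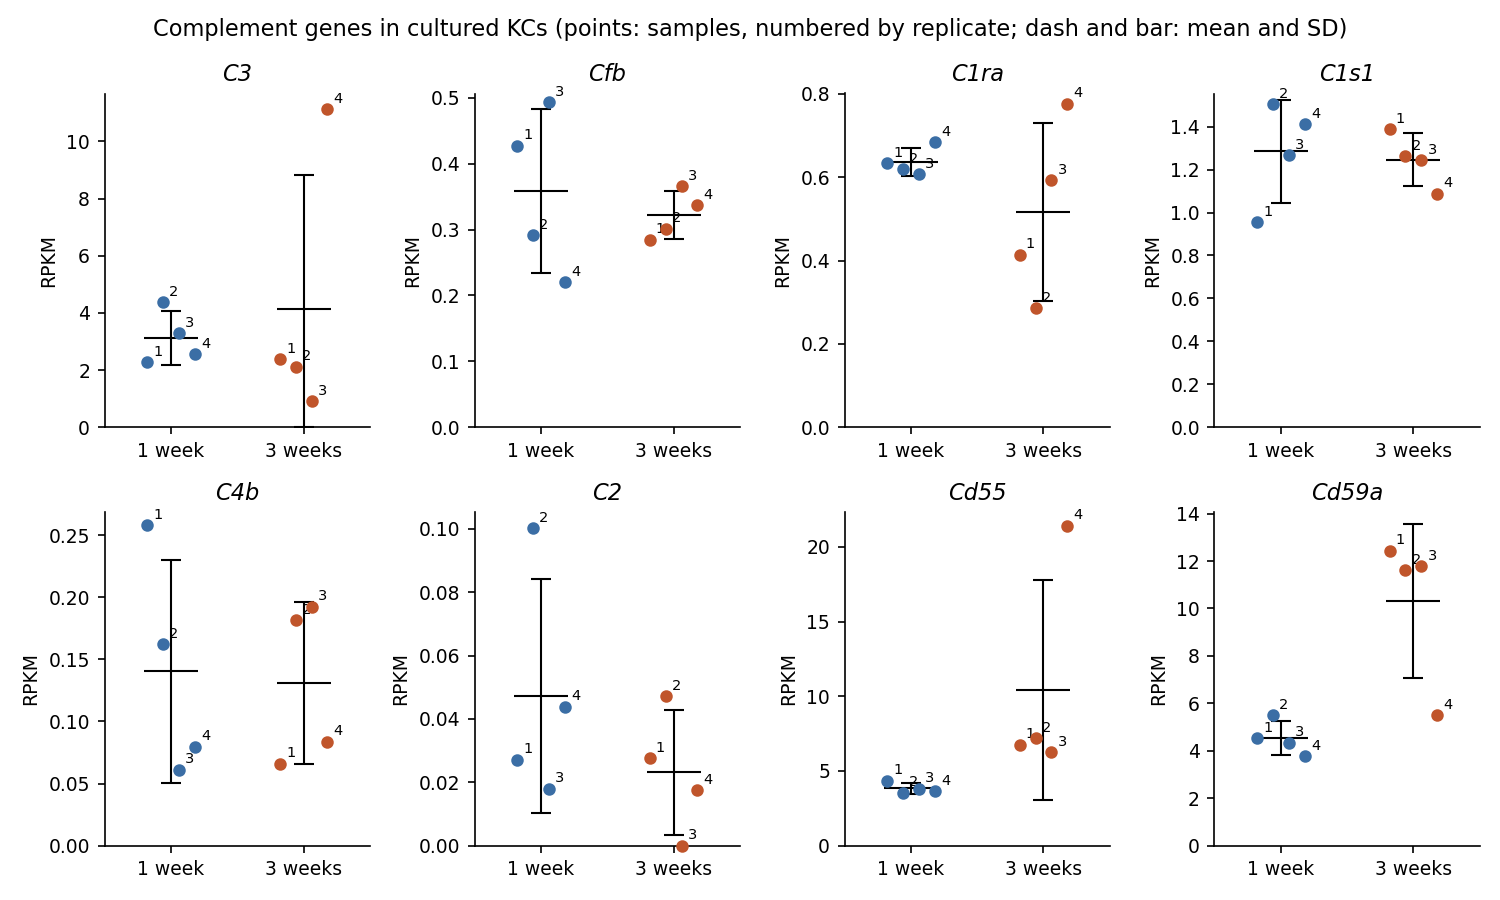
RPKM of the 8 complement genes in each sample, 1 panel a gene with its own axis from 0, KCs cultured for 1 week (blue) and for 3 weeks (orange). Points are samples with their replicate numbers, the dash is the mean and the bar the SD of 4 samples (the lower bar of C3 at 3 weeks is cut at 0). Cd55 at 3 weeks lies above all 1-week samples, with replicate 4 at 21.4 RPKM, and Cd59a lies higher in replicates 1 to 3 than in replicate 4.

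Cd55 (ENSMUSG00000026399, chromosome 1, 130439027 to 130462744, minus strand, GRCm38) encodes decay-accelerating factor, an anchored protein that limits the cleavage of C3 on the cell that carries it. At 1 week its RPKM was 4.35, 3.55, 3.82 and 3.63 in replicates 1 to 4. At 3 weeks it was 6.77, 7.18, 6.26 and 21.4. The lowest 3-week sample was higher than the highest 1-week sample, and 3 weeks replicate 4 was 3.18-fold above the mean of the other 3-week samples. Groups without overlap in RPKM were found for 37.0% of all genes tested. The mean rose from 3.84 ± 0.360 RPKM to 10.4 ± 7.34 RPKM (SD, n = 4), and the log2 fold change was 1.58 (SE 0.38, 95% interval 0.73 to 2.42, adjusted p = 0.0120, edgeR). Without 3 weeks replicate 4 the log2 fold change was smaller, 0.99, with a smaller SE of 0.12 (adjusted p = 0.000886, edgeR).

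Within the preparations that occur at both times, the RPKM of Cd55 was 1.56-fold higher at 3 weeks in preparation 46, 1.88-fold in preparation 49 and 5.89-fold in preparation 90, which gave 3 weeks replicate 4. The direction was thus the same in 3 of 3 preparations. Of the reads on Cd55, 76.8% were placed at a single position. Counting only those, the log2 fold change was 1.58. Its neighbouring copy Cd55b had 0 reads in all samples. Cd55 overlaps Gm16083 on the opposite strand, and no source used here says that reads were counted by strand.

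Cd59a (ENSMUSG00000032679, chromosome 2, 104095801 to 104115354, plus strand) encodes the protein that stops the last step of complement, the insertion of C9 into the membrane. Its RPKM was 4.52, 5.50, 4.35 and 3.79 in the 1-week replicates. The 3-week values were 12.4, 11.6, 11.8 and 5.49. Replicates 1 to 3 at 3 weeks were all above the 1-week samples, whereas replicate 4, the sample with the highest Cd55, lay just below the highest 1-week sample. The mean rose from 4.54 ± 0.711 to 10.3 ± 3.25 RPKM (SD, n = 4). Its log2 fold change was 1.36 (SE 0.27, 95% interval 0.74 to 1.98, adjusted p = 0.00577, edgeR). Leaving out 3 weeks replicate 4 increased the log2 fold change to 1.58 (adjusted p = 0.000399, edgeR).

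In preparations 46 and 49 the RPKM of Cd59a was 2.75-fold and 2.67-fold higher at 3 weeks, and in preparation 90 it was 1.45-fold higher. In 3 weeks replicate 4 the Cd59a level was 0.459 of the mean of the other 3-week samples. The 2 regulators thus differed most in the same sample, in opposite directions. Of the reads on Cd59a 85.4% were unique, and these gave a log2 fold change of 1.30.

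**Figure D2:**
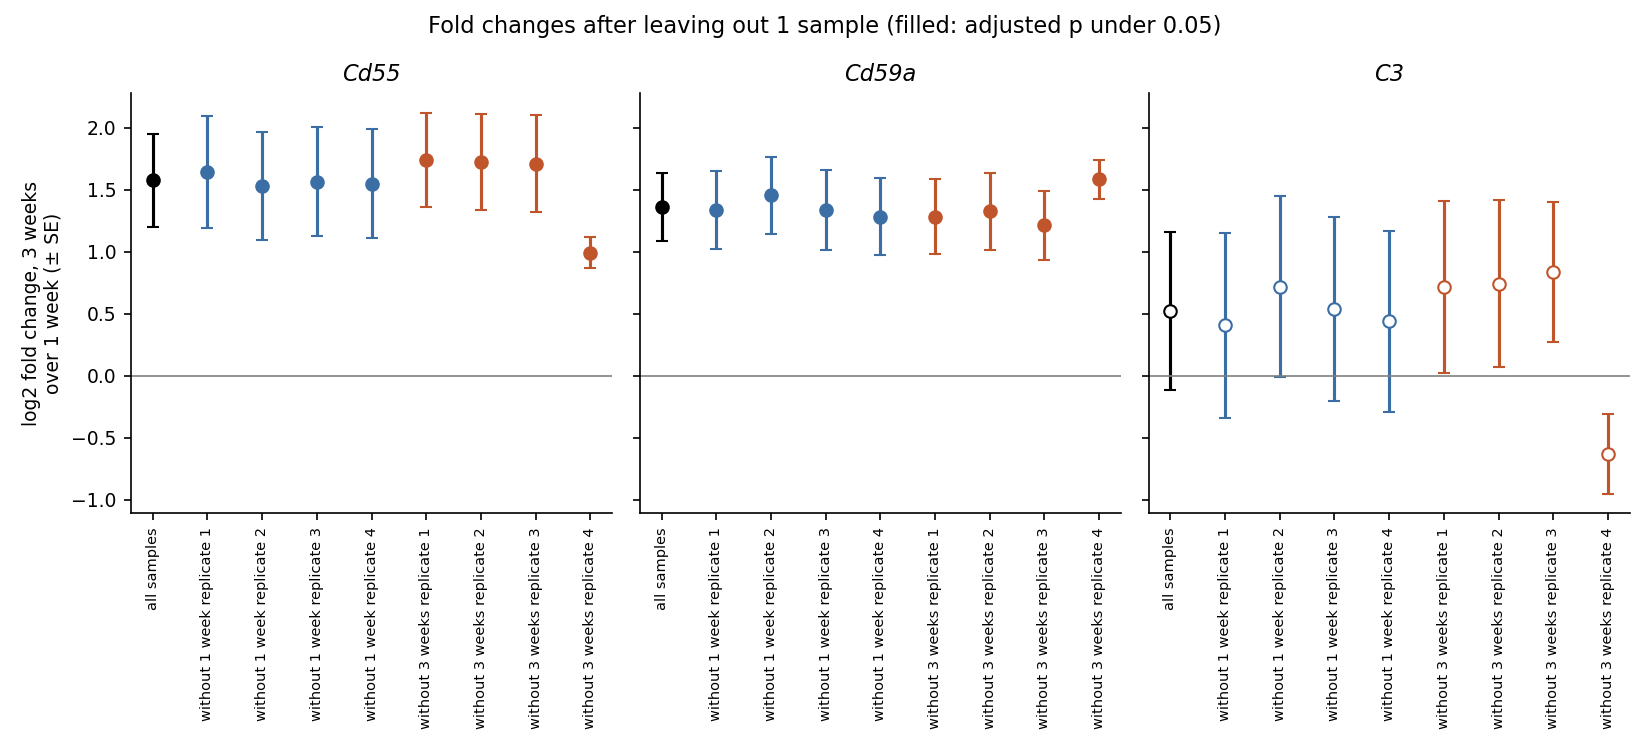
Log2 fold changes of Cd55, Cd59a and C3, 3 weeks over 1 week, from all samples (black) and after leaving out each 1-week (blue) or 3-week (orange) sample. Bars are SE, and filled points have an adjusted p under 0.05 in edgeR. Cd55 and Cd59a stay between 0.99 and 1.74, whereas C3 turns negative (-0.63) without 3 weeks replicate 4.

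C3 (ENSMUSG00000024164, chromosome 17, 57203970 to 57228136, minus strand) is the component on which all pathways converge. Its RPKM at 1 week was 2.27, 4.38, 3.28 and 2.57. At 3 weeks it was 2.39, 2.12, 0.900 and 11.1. The 3-week samples thus included both the lowest and the highest level of all 8 samples, and the groups overlapped. The means were 3.12 ± 0.939 and 4.13 ± 4.70 RPKM (SD, n = 4), and the log2 fold change of 0.52 (SE 0.64, 95% interval -0.92 to 1.97) did not pass the test (adjusted p = 0.565, edgeR). Without 3 weeks replicate 4 the sign turned and the log2 fold change was -0.63 (SE 0.32, adjusted p = 0.163, edgeR), which did not pass either.

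The RPKM ratio of C3 between 3 weeks and 1 week was 1.05 in preparation 46, 0.646 in preparation 49 and 4.33 in preparation 90. Hence no direction of C3 was shared by the preparations. All 2485 exon reads on C3 were unique, and 45.7% of them spanned a splice junction, compared to 24.1% of the exon reads of all genes. In 3 weeks replicate 4, C3 was 6.17-fold above the mean of the other 3-week samples. This sample was the highest at 3 weeks for 33.6% of all genes tested and the lowest for 39.3%.

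The classical pathway begins with the proteases C1r and C1s, of which C1ra and C1s1 are the main mouse genes. They lie next to each other on chromosome 6 (C1ra, ENSMUSG00000055172, 124512405 to 124523443, plus strand; C1s1, ENSMUSG00000038521, 124530345 to 124542359, minus strand). C1s1 was at 0.957, 1.51, 1.27 and 1.41 RPKM at 1 week and at 1.39, 1.26, 1.25 and 1.09 RPKM at 3 weeks. The groups overlapped almost completely, and the log2 fold change was 0.12 (SE 0.21, 95% interval -0.35 to 0.60, adjusted p = 0.684, edgeR). A change of C1s1 by more than 1.51-fold in either direction lies outside this interval, which holds for total exon reads only. Of the exon reads on C1s1, 29.0% were unique, and these gave a log2 fold change of 0.18 with a larger SE of 0.29. C1ra was at 0.634, 0.619, 0.608 and 0.685 RPKM at 1 week and at 0.414, 0.286, 0.592 and 0.776 RPKM at 3 weeks. The 1-week samples of C1ra were close to each other and lay within the range of the 3-week samples. Its log2 fold change was -0.14 (SE 0.33, 95% interval -0.87 to 0.60, adjusted p = 0.783, edgeR). C1s1 overlaps Gm16567 on the opposite strand, and C2 overlaps Zbtb12 in the same way.

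C4b and C2 encode the proteins that form the C3-cleaving enzyme of the classical pathway. C4b (ENSMUSG00000073418, chromosome 17, 34728380 to 34743882, minus strand) had between 5 and 28 reads per sample, that is 0.258, 0.162, 0.0612 and 0.0796 RPKM at 1 week and 0.0660, 0.182, 0.192 and 0.0837 RPKM at 3 weeks. High and low samples occurred in both groups, and the log2 fold change of 0.05 (SE 0.56) had a 95% interval of -1.21 to 1.31 (adjusted p = 0.955, edgeR), which corresponds to changes between 0.434-fold and 2.48-fold. C2 (ENSMUSG00000024371, chromosome 17, 34862604 to 34898265, minus strand) had 2, 8, 1 and 3 exon reads at 1 week and 2, 3, 0 and 1 at 3 weeks. In 7 of 8 samples this is not more than the 3 reads that a count of 0 allows, which would be between 0.0376 and 0.0540 RPKM, and no fold change is given. C2 had more intron reads (51 over all samples) than exon reads (20).

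Cfb (ENSMUSG00000090231, chromosome 17, 34856374 to 34862518, minus strand) encodes factor B, the protease of the alternative pathway. It was at 0.428, 0.292, 0.493 and 0.221 RPKM at 1 week and at 0.285, 0.302, 0.366 and 0.337 RPKM at 3 weeks. All 3-week samples lay within the range of the 1-week samples. The log2 fold change was 0.02 (SE 0.33, 95% interval -0.72 to 0.76, adjusted p = 0.967, edgeR). Each of these values rests on 11 to 23 reads. Further 162 reads lay in introns of Cfb, 55.3% of its reads, compared to 1.72% over all genes.

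**Figure D3:**
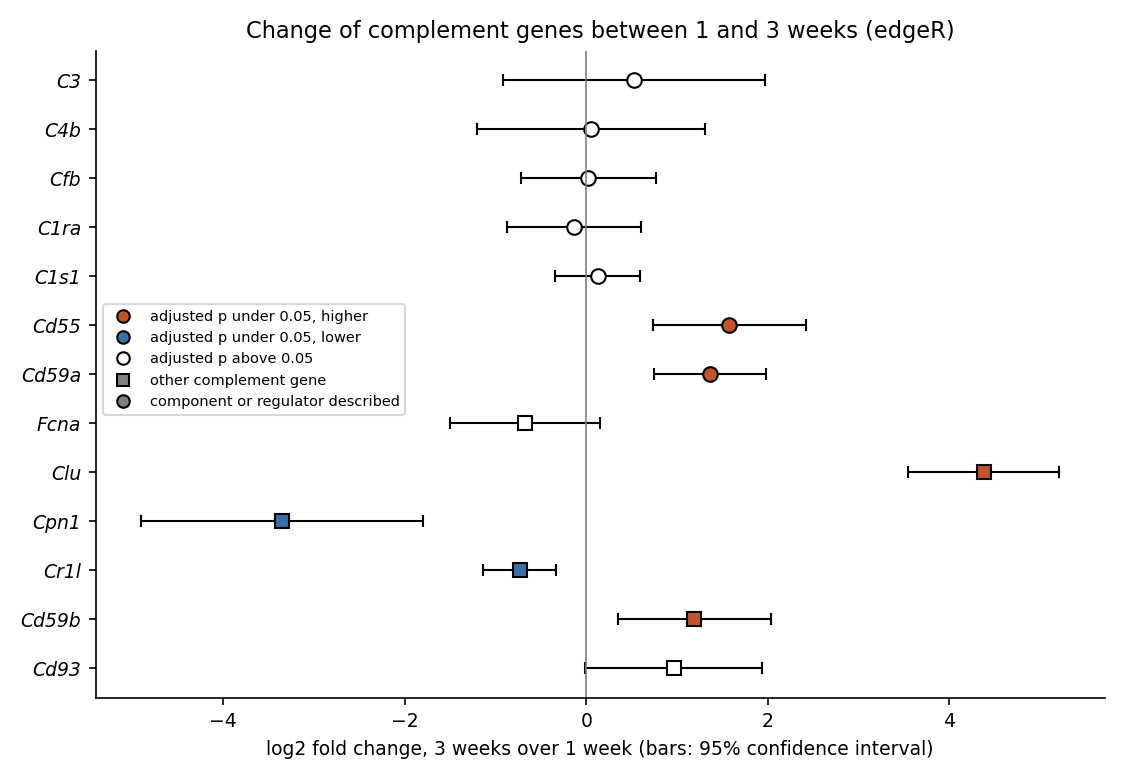
Log2 fold change, 3 weeks over 1 week, of the complement genes with enough reads for the test, with 95% confidence intervals from edgeR. Circles are the genes described first, squares other complement genes, and filled symbols have an adjusted p under 0.05. Cd55 (1.58), Cd59a (1.36), Clu (4.38) and Cd59b (1.19) lie to the right of 0 and Cr1l (-0.73) and Cpn1 (-3.35) to the left, and the intervals of the other genes include 0.

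At 1 week the order of the mean RPKM was Cd59a, Cd55, C3, C1s1, C1ra, Cfb, C4b and C2. The ranges of Cd59a and Cd55 and of Cd55 and C3 overlapped, as did those of Cfb and C4b and of C4b and C2, whereas C3 and C1s1, C1s1 and C1ra, and C1ra and Cfb were separate. At 3 weeks Cd55 and Cd59a had nearly equal means (10.4 and 10.3 RPKM) and were followed by C3, C1s1, C1ra, Cfb, C4b and C2. Here the ranges of Cd55 and Cd59a, of Cd59a and C3, of C3 and C1s1, and of C1ra and Cfb overlapped. Cd59a had the highest RPKM of the 8 genes in 7 of 8 samples, and in 3 weeks replicate 4 the order was Cd55, C3 and Cd59a.

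C3, Cd55 and Cd59a together made up 80.4% to 94.3% of the summed RPKM of the 8 genes in a sample. The summed RPKM of Cd55 and Cd59a was 1.28 to 1.94 times that of the 6 components in the 1-week samples. In the 3-week samples this ratio was 4.20, 4.48, 5.47 and 2.00 in replicates 1 to 4. All of these were above the 1-week ratios, replicate 4 only just, which restates the rise of Cd55 and Cd59a. The membrane regulators Cr1l and Cd59b are not in these sums. Cd59b was higher at 3 weeks but reached at most 1.44 RPKM. Cr1l lay between 6.74 and 10.2 RPKM in the 1-week samples, compared to 3.81 RPKM in 3 weeks replicate 4. The separation of the ratios therefore applies to Cd55 and Cd59a only, not to membrane regulators in general. Cd55 and Cd59a summed to 7.42 to 9.05 RPKM at 1 week and to 18.0 to 26.9 RPKM at 3 weeks. The components summed to 4.57 to 7.06 RPKM at 1 week and to 3.30 to 13.4 RPKM at 3 weeks, with 3 weeks replicate 4 the highest.

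Several of these genes have near-identical copies or share exons with other genes, and their levels are therefore less certain than their read counts imply. Cfb had 131 exon reads over all samples, of which 4.58% were placed at a single position. Windows of 59 bases, the read length, were compared between all transcripts of the GENCODE M21 annotation. Of the Cfb windows 71.8% also occurred in Gm20547, a transcript that runs through C2 and Cfb, and of the C2 windows 38.1% did. C1ra shared 44.7% of its windows with C1rb, C4b shared 29.5% with C4a and C1s1 17.9% with C1s2. Together with Gm16567, which overlaps C1s1 on the opposite strand, 30.8% of the C1s1 windows were shared. Of the C1s1 exon reads 29.0% were unique, and the source of the other reads was not tested. Of these copies, C1rb had 0 reads, C1s2 had 2 reads in 1 sample, and C4a had at most 4 reads in a sample, so that few reads were assigned to them. C3 shared no window with another gene.

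**Figure D4:**
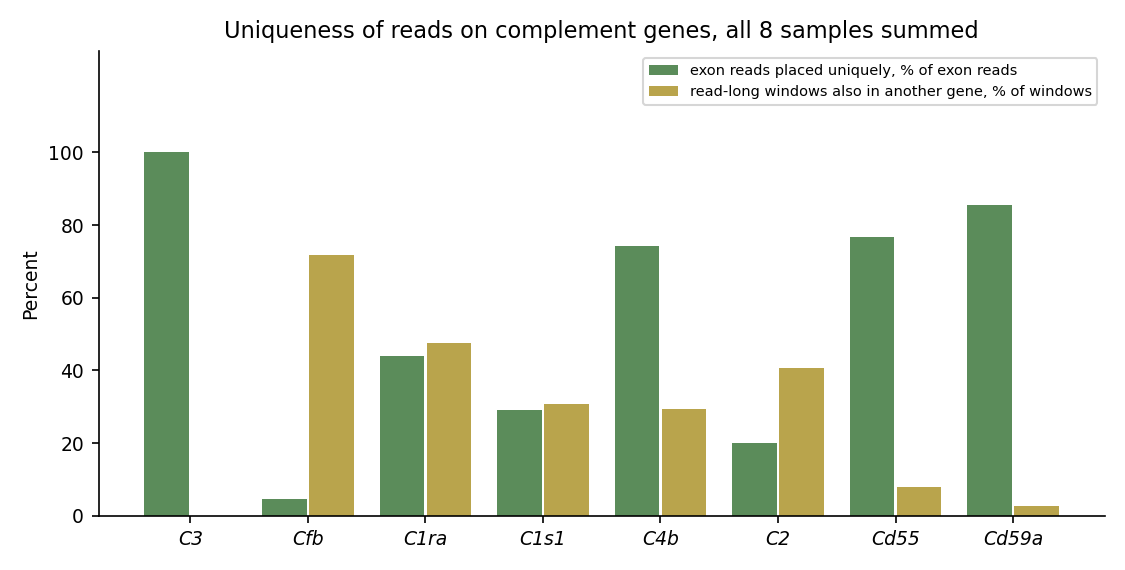
Share of exon reads placed at a single position (green, percent of the exon reads, all 8 samples summed) and share of read-long windows that also occur in transcripts of another gene (ochre, percent of windows) for the 8 complement genes. C3 has only unique reads and no shared window, whereas 4.58% of the Cfb reads are unique and 71.8% of its windows are shared.

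Of 48 further complement genes, 47 were listed and 6 had enough reads for the test. Clu and Cd59b were higher and Cpn1 and Cr1l lower at 3 weeks, and Fcna and Cd93 did not pass. Of all genes tested, 32.8% were called. No gene of the terminal pathway (Hc, C6, C7, C8a, C8b, C8g, C9), the targets of CD59 among them, could be tested, and 5 of these 7 genes had 0 reads in every sample. The 3 C1q genes, whose product activates C1r, had between 1 and 12 reads in a sample. The receptors C3ar1 and C5ar1 of the anaphylatoxins had at most 7 reads in a sample. The alternative pathway genes Cfd and Cfp stayed below the filter as well, as did the soluble regulators Cfi and Serping1.

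Clu encodes clusterin, a secreted chaperone that can also keep the membrane attack complex from inserting. It was at 17.9, 22.8, 20.4 and 8.25 RPKM at 1 week and at 488, 279, 256 and 267 RPKM at 3 weeks. All 3-week samples were far above the 1-week samples, with a log2 fold change of 4.38 (SE 0.37, 20.8-fold, adjusted p = 0.000204, edgeR). By its mean RPKM it was the highest of all complement genes listed here at both times. In the shared preparations its RPKM was 27.2-fold (46), 13.7-fold (49) and 32.4-fold (90) higher at 3 weeks.

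Cr1l encodes Crry, a membrane regulator of rodent cells that, like CD55, acts on the enzymes that cleave C3. Its RPKM was 9.63, 10.2, 6.74 and 8.80 at 1 week and 4.74, 5.29, 5.08 and 3.81 at 3 weeks. The groups did not overlap, as for 37.0% of all genes tested, and the log2 fold change was -0.73 (SE 0.18, adjusted p = 0.0131, edgeR). At 1 week Cr1l was above Cd55 in all 4 replicates, and at 3 weeks it was below Cd55 in all 4. The regulators of the C3-cleaving enzymes thus did not move in 1 direction. Cr1l was also lower at 3 weeks in 3 of 3 preparations, with RPKM ratios between 0.433 and 0.784.

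Cd59b is the other mouse gene of CD59, known mainly from testis. It was at 0.687, 0.672, 0.429 and 0.305 RPKM at 1 week and at 1.44, 1.36, 0.843 and 0.681 RPKM at 3 weeks, with 7 to 35 reads in a sample. Its log2 fold change was 1.19 (SE 0.37, adjusted p = 0.0372, edgeR), and it lost the call in 8 of 17 alternatives, 6 of which left out 1 sample (adjusted p up to 0.103). In the 3 shared preparations, with the preparation as a block, its adjusted p was 0.0553 (edgeR, log2 fold change 1.35). Of the Cd59a windows 2.54% also occurred in Cd59b. Cpn1, the active subunit of carboxypeptidase N that inactivates the anaphylatoxins, was at 0.370, 0.303, 1.55 and 1.65 RPKM at 1 week and at 0.0727, 0.0660, 0.0495 and 0.148 RPKM at 3 weeks. The groups did not overlap, as for 37.0% of all genes tested (log2 fold change -3.35, SE 0.69, adjusted p = 0.00610, edgeR). The 3-week values rest on as few as 3 reads.

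**Figure D5:**
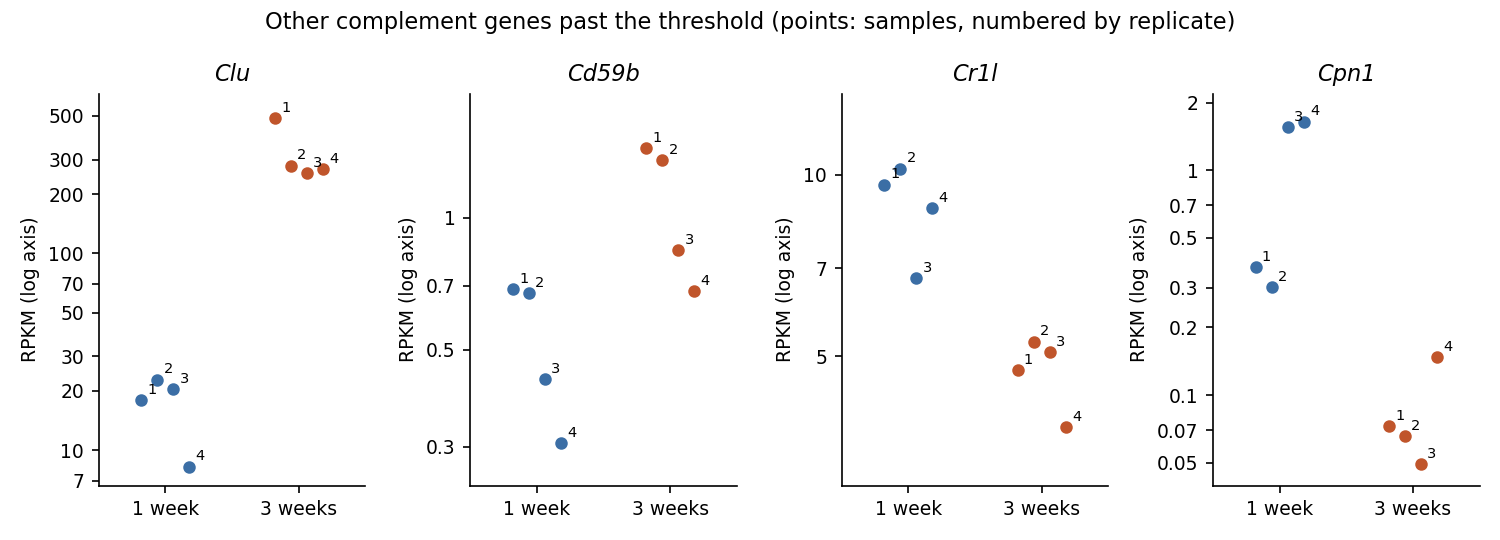
RPKM, on log axes that differ between panels, of the other complement genes with an adjusted p under 0.05, in KCs cultured for 1 week (blue) and 3 weeks (orange). Points are samples with their replicate numbers. Clu lies between 8.25 and 22.8 RPKM at 1 week and between 256 and 488 RPKM at 3 weeks, Cr1l and Cpn1 lie lower at 3 weeks in all samples, and Cd59b overlaps slightly.

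C3 and Cfb are textbook targets of inflammatory cytokines and of the factors NF-kB, C/EBP and STAT. Of 16 such cytokines and factors, 11 were tested and 1 passed the threshold, whereas 32.8% of all genes tested did. Il1a, the interleukin-1 that KCs store and release, was at 158, 205, 139 and 136 RPKM at 1 week and at 32.5, 41.2, 41.6 and 40.8 RPKM at 3 weeks. It was lower in all 3-week samples (log2 fold change -1.86, SE 0.17, adjusted p = 0.000293, edgeR). Il6, Ifnb1, Ifng and Osm had at most 1 read in a sample. Without 3 weeks replicate 4, Cebpb, Cebpd and Nfkb1 were called lower as well.

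Several of these factors were high in 3 weeks replicate 4, the sample with the highest C3 and Cd55. Cebpd, Cebpb, Nfkb1 and Stat3 were highest in this sample among the 3-week samples, as were 33.6% of all genes. Cebpd was 3.31-fold, Cebpb 2.37-fold, Nfkb1 2.02-fold and Stat3 1.86-fold above the mean of the other 3-week samples, whereas Rela, Relb and Nfkb2 were below it (0.924, 0.746 and 0.814 of the mean). These genes were singled out after their values were seen. The part of these factors in the levels of C3 and Cd55 was not tested.

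Markers of other cells were compared because fibroblasts and macrophages are known to make C1r, C1s, C3 and C1q. The summed RPKM of the 8 KC markers was between 12400 and 14640 at 1 week and between 7403 and 8585 at 3 weeks, and 2 of 8 tested markers, Krt5 and Itga6, were lower. The fibroblast markers summed to 4.00 to 6.98 RPKM at 1 week and to 2.84 to 6.14 RPKM at 3 weeks, where 3 weeks replicate 4 was the highest, and 1 of 8 (Pdgfrb) was lower. The macrophage and leukocyte markers summed to 15.4 to 20.8 and 8.25 to 14.0 RPKM, mostly Cd68, again with 3 weeks replicate 4 the highest at 3 weeks, and 1 of 3 tested (Cd68) was lower. Melanocyte markers summed to 3.54 to 21.4 and 1.65 to 5.94 RPKM (1 of 5 tested, Pmel, lower). Of the Langerhans cell markers 1 of 4 tested, H2-Ab1, was higher, and their sum was 1.91 to 3.55 and 4.34 to 10.1 RPKM. The endothelial markers summed to at most 0.559 RPKM and the T cell markers to at most 1.86 RPKM, nearly all of it Thy1, and 0 of 2 and 0 of 1 tested passed edgeR. In bulk RNA, fewer cells of a type and less RNA per cell cannot be told apart, and the part of other cells in the levels of the complement genes was not tested.

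The genes whose course over the 8 samples was most like that of each complement gene were sought among the 9901 genes that averaged 1 RPKM or more. The measure was the root mean square (RMS) difference of log2(RPKM + 0.1), each gene centred on its own mean. For Cd55 they were Prob1, Gdpd1 and Frk (RMS difference 0.155 to 0.178, where the Cd55 values themselves deviated by 0.795 from their mean). For Cd59a they were Kctd17, Tpm2 and Faxc (0.124 to 0.150, own deviation 0.665). For C3 they were Timp3, Map3k4 and Usp6nl (0.323 to 0.374, own deviation 0.929), so that C3 had no gene as close as the regulators had. None of the 8 complement genes was among these lists by the rule, which left them out.

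The other complement genes of the 8 deviated less from their own means in this measure, by 0.183 (C1s1) to 0.413 (C4b). In RPKM, C4b and C2 varied more, with an SD between 49.9% and 85.2% of the mean in a group. C1s1 was closest to Ptrhd1, Gkap1 and Wbp4, C1ra to Snhg15, Adck1 and Ephb6, Cfb to Tbk1, Morn2 and Mpi, C4b to Fggy, Cebpzos and Cyb561, and C2 to Trim3, Ulk3 and Zfp148. Their RMS differences were between 0.0897 and 0.206. The values of C2 and C4b in this measure consist mostly of the added 0.1 and of counting error.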

How the data were processed

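Poly(A) RNA of 8 samples of cultured KCs was sequenced. The authors aligned the reads to GRCm38 in the CLC Genomics Workbench with default settings and deposited 1 gene table per sample, with counts of total exon, unique exon, intron and junction reads. The authors also deposited RPKM values, written with decimal commas, which equal the exon reads divided by exon length and mapped reads. TPM values were not used. Counting by strand and the annotation release are not given in the sources used here.

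The test on total exon reads used edgeR 4.0.16 with R 4.3.3 (filterByExpr, TMM, glmQLFit and glmQLFTest, unpaired), checked on simulated counts. SE were derived from the F statistics. Alternatives were DESeq2 1.42.0, limma 3.58.1 on log2(RPKM + 0.1) or log2(RPKM + 1), other filters, normalizations and read columns, near-identical copies summed, a replicate block, and the omission of each sample. Tables and figures were made with Python 3.11.15 and matplotlib 3.10.9. The study cultured the same batches for both times, and preparation numbers 46, 49 and 90 occur at both, so these 3 preparations were also compared with the preparation as a block. Their deviations from the group means correlated at -0.23, 0.20 and 0.25. The smallest chi-square per degree of freedom between replicates was 15.5, so no samples were the same library. The limit of 3 reads that a count of 0 allows covers counting error only.

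The genes, lists, tests and alternatives were chosen with earlier results of these data known. Named are the 8 genes, other complement genes past the threshold or with a mean of at least 1 RPKM, inducers past the threshold and the 3 genes of most similar course for each complement gene. Further genes of the lists are named where a count is given for their group, and the inducers described for 3 weeks replicate 4 were chosen after their values were seen. Some genes of the lists are not reported here. Coordinates are those of the deposited tables.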

Additional observations from a re-analysis of the deposited data

Results flagged for a closer look

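A gap rule for groups of 4 (the distance of the outermost sample from its neighbour over the range of the group, above Dixon's 95% critical value) was applied to 26 groups, the RPKM at 1 or 3 weeks of the 8 genes and of Clu, Cr1l, Cpn1, Cd59b and Il1a, and it singled out 5. Chance does so in about 1 of 20 groups. In 3 weeks replicate 4, C3 was at 11.1 RPKM (0.854 of the range), Cd55 at 21.4 RPKM (0.939) and Cd59a at 5.49 RPKM (0.882), so that this sample stood apart in the 3 most expressed of the 8 genes, higher in C3 and Cd55 and lower in Cd59a. Over all genes tested, the same sample passed this rule for 6.08% when it was applied to normalised counts, and on that scale it did so for 2 of the 7 complement genes tested. Clu at 488 RPKM and Il1a at 32.5 RPKM stood apart in 3 weeks replicate 1.

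Intron reads of Cfb entered only the alternative with all reads on the gene (log2 fold change -0.051, adjusted p = 0.890, edgeR). They made up 55.3% of its reads, above the limit of a count of 0 in every sample.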

How the results depend on the processing

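Cd55 and Cd59a kept their direction and an adjusted p under 0.05 in all 19 alternatives each (log2 fold change 0.99 to 1.74 and 0.98 to 1.58, adjusted p up to 0.0421 and 0.0217 by edgeR, DESeq2 or limma), and the number of called genes among the 8 was 2 in each. None of the other genes of the 8 passed in any alternative (lowest adjusted p 0.163, C3), but their signs did not hold, and the cause was not tested. C3 was -0.16 with limma on log2(RPKM + 0.1), -0.035 on log2(RPKM + 1) and -0.051 with the replicate block. C4b was -0.011 without a filter, -0.31 with unique reads and -0.029 and -0.010 with limma. Cfb was -0.041 without a filter, -0.051 with all reads on the gene, -0.080 and -0.034 with limma and -0.18 in the 3 shared preparations with a block. C1ra was 0.0050 with unique reads, and C1s1 was -0.029 and -0.021 with limma. With 1 sample left out at a time, values ranged from -0.63 to 0.83 for C3, from -0.28 to 0.50 for C4b, from -0.15 to 0.19 for Cfb, from -0.36 to 0.077 for C1ra and from -0.014 to 0.20 for C1s1. C2 was tested only without a filter, where it did not pass (adjusted p = 0.467, edgeR). No value was obtained for C4b with a minimum of 10 reads or in the 3 shared preparations, nor for Cfb with unique reads.

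With a minimum of 10 reads in every sample, 2 of the other complement genes were called (Clu and Cr1l) in place of 4, since Cpn1 and Cd59b are then not tested, and leaving out samples gave 3 to 5. Of the inducers 2 (Il1a and Cebpb) in place of 1 were called with DESeq2, with upper-quartile normalization, without a filter, with unique reads and with either limma fit, and 1 to 5 when samples were left out, with 5 without 3 weeks replicate 4. Of all genes tested, 48.0% of the 4127 calls were higher, compared to 29.8% of 4402 with limma on log2(RPKM + 0.1), where the median log2 fold change was -0.16 in place of 0.03.

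The replicate numbers of the labels occur at both times, but 2 and 3 join different preparations, and samples that share a number deviated from the means of their groups with correlations between -0.23 and 0.25 across genes. With these numbers as a replicate block 2867 genes were called in place of 4127, and Cd55 (1.38) and Cd59a (1.30) kept their calls. In the 3 shared preparations with the preparation as a block, which uses 6 of the 8 samples, 3109 genes were called, Cd55 (1.44) and Cd59a (1.22) kept their calls, and of the other complement genes Cd59b lost its call (adjusted p = 0.0553, edgeR). C2, C4b, Cfb and C1ra had under 30 reads in at least 4 samples, so that counting error is part of the spread of these genes.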
